A study of Mus musculus with 8 samples.

Results

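The proteasome is the protease complex that breaks down ubiquitin-tagged proteins, and the mRNA levels of its subunit genes were followed over 4 days of sampling in mouse fibroblasts undergoing factor-induced reprogramming. The genes were chosen by name. All genes called Psma, Psmb, Psmc, Psmd, Psme or Psmf followed by a number were taken, without the immunoproteasome genes Psmb8, Psmb9 and Psmb10, which are described separately. Of the 32108 genes measured, 41 had such a name, and 40 of these reached at least 1 CPM (the gene's share of a library's counted reads, scaled to a library total of 1000000) in at least 2 libraries, a filter that 15358 genes passed in all. Psma8, a testis form of an alpha subunit, lay just inside the filter at 0.702 to 1.60 CPM, and only its D6 and D8 libraries reached 1 CPM. Psmb11, the thymus form of a catalytic subunit, was the member that did not pass, with at most 0.159 CPM, and was not tested. The other 39 genes ranged from 14.5 CPM (Psmd10) to 463 CPM (Psmd8) over the 8 libraries.

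The cells were 4F2A MEFs, fibroblasts from mouse embryos that the labels give as male, homozygous for 4F2A and of 13.5 dpc. The strain carries a doxycycline-inducible cassette of the 4 factors Oct4, Sox2, Klf4 and c-Myc. Doxycycline (2 µg/mL) was present from day 0, in KnockOut DMEM with KnockOut Serum Replacement and 1000 U/mL LIF, a cytokine that supports mouse pluripotent cells. Total RNA was sequenced on days 2, 4, 6 and 8 (D2, D4, D6 and D8), with 2 libraries per day. Every group thus carried the cassette and received doxycycline. No library without doxycycline and none from day 0 was analysed here, although the sample titles contain "Ctr", so each comparison is between days of induction. The labels name no separate cultures or animals behind the 2 libraries, so p-values measure the spread between them, which may be technical.

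The 20S core of the proteasome is a barrel of stacked alpha and beta rings, with the proteolytic sites inside the beta rings. The 19S particle caps the barrel. Its base holds the ATPases that unfold substrates, and its lid removes ubiquitin chains. Cells can also cap the barrel with the activators PA28 (Psme1 and Psme2), PA28gamma (Psme3) or PA200 (Psme4). When proteasome activity falls short, the transcription factor encoded by Nfe2l1 is known to raise transcription of the subunit genes together, through antioxidant response elements in their promoters.

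The libraries held 19409936 to 20161021 counted reads, so 3 reads, the most that a count of 0 allows for, equal 0.149 to 0.155 CPM (counting error only). The least abundant tested member apart from Psma8 had 289 reads in its lowest library, so counting error is small for all of these 39 genes. All 4 factor genes were higher in D8 than in D2, from 0.84 (Klf4) to 1.30 (Pou5f1) on the log2 scale. The 8 fibroblast markers summed to 31489 to 49879 CPM in every library, but singly they went different ways. From D2 to D8, 1 rose and 5 fell, with differences from -1.87 to 2.07 on the log2 scale. Between D2 and D4, 4 rose and 4 fell. None of 5 pluripotency markers passed the filter, with Dppa5a and Tdgf1 below 3 reads in all libraries. Markers of epithelial cells summed to 6.70 and 8.74 CPM in D2 and to 158 and 168 CPM in D8, and those of endothelial cells to 68.9 and 71.3 CPM and to 163 and 165 CPM. Of the 4 epithelial markers, 2 passed the filter, and these 2 rose from D2 to D8. Of the 4 endothelial markers, 3 passed, of which 2 rose and 1 fell (-1.42 on the log2 scale). Of all tested genes, 47.3% rose and 23.1% fell over these days. In bulk RNA, fewer cells of a type and less RNA per cell cannot be told apart, and the part of this changing makeup in the results was not tested. Xist lay between 702 and 1238 CPM and 4 Y-linked genes reached at most 0.333 CPM, which goes against the label of male embryos.

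Promoters of 34 of the 41 genes were matched to RefSeq (GRCm38.p6, 250 bases before to 50 bases after the gene start, 5′ to 3′ on the gene's own strand). Below are those of the members on which the results turn. Psmd8 and Psmb5 had the largest falls between D2 and D4, Psmb6 encodes a catalytic subunit like Psmb5 and moved less, and Psme1 and Psme2 rose. Capitals mark TGANNNNGC, the core of the antioxidant response element, on either strand, except in the Psme1 promoter, which holds no match to it and where capitals mark the core of the interferon-stimulated response element, GAAA, 2 bases of any kind and GAAA again.
Psmd8 (chr7:29180624-29180923, minus strand): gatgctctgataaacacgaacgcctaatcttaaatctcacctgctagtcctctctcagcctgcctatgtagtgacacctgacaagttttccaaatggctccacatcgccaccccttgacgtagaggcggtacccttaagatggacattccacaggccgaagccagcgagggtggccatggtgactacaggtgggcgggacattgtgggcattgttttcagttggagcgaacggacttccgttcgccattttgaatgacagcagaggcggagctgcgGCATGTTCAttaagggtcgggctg
Psmb5 (chr14:54617946-54618245, minus strand): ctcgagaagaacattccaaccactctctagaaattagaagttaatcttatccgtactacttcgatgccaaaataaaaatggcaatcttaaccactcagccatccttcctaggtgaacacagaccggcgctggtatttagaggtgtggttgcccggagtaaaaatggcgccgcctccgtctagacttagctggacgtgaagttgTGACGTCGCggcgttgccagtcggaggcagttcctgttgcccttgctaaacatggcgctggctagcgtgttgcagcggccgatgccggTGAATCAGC
Psmb6 (chr11:70525107-70525406, plus strand): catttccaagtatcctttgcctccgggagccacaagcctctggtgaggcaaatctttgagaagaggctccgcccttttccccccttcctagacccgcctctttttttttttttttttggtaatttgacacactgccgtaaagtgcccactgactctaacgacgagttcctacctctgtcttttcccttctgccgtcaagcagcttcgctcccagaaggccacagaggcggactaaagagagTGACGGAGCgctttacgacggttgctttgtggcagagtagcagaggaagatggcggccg
Psme1 (chr14:55578244-55578543, plus strand): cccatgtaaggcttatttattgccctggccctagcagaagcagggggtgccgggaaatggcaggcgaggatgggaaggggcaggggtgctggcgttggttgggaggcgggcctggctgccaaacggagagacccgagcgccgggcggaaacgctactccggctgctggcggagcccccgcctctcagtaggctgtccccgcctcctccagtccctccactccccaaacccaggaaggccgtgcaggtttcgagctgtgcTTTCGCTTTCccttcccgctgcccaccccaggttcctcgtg
Psme2 (chr14:55590972-55591271, minus strand): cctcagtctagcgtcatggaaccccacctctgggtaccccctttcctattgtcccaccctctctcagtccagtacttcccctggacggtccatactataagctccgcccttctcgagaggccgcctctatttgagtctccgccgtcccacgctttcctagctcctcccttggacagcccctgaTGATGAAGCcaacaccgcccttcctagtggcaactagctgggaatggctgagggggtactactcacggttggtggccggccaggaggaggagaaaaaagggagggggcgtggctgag

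With the first transcribed base as position 0, the match began at position 26 in Psmd8, at -47 and 41 in Psmb5, at -9 in Psmb6 and at -67 in Psme2. For Psme2 a second start (promoter chr14:55591052-55591351, not shown) puts the same match at position 13, within the transcript. The match in Psme1 began at position 9. TGANNNNGC was found in 19 of the 34 member promoters (55.9%), beside 45.0% of all 27025 genes with a promoter in the table and 47.6% of the tested genes with one. The stricter form TGACNNNGC, which is contained in the looser one, was found in 6 members (17.6%: Psmb5, Psmb6, Psmc6, Psmd12, Psmd9 and Psme4), beside 14.0% of all and 16.5% of the tested genes. CCAAT, the box bound by NF-Y, was found in 13 members (38.2%), beside 41.1% and 42.9%, and CACGTG, the E-box bound by Myc, in 3 (8.82%), beside 8.09% and 11.3%. The interferon element core, searched only after Psme1 and Psme2 were seen to rise, was found in 4 members (11.8%: Psmb3, Psmd4, Psmd9 and Psme1), beside 3.99% and 3.76%. Of these 4, Psme1 rose between D2 and D4, Psmb3 and Psmd4 fell, and Psmd9 was not called. Psme2 held no match to it. All motifs were searched on both strands. A match is a description of these letters and not of a bound site.

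Between D2 and D4 most proteasome genes fell, while the gene set as a whole shifted upwards. Of the 40 tested members, 26 fell and 2 rose (limma on log2(CPM + 1), adjusted p under 0.05 over all tested genes). Of all tested genes, 21.7% fell and 40.9% rose. The members' median difference was -0.22 on the log2 scale and that of all tested genes 0.11, and 38 of the 40 members lay below the latter. Under median-of-ratios scaling, which moves the median of all genes by -0.09, the counts were 34 lower and 2 higher, and under quantile normalization, which moves it by -0.14, they were 26 and 2. Of all called genes, 65.3% were higher as reported, 52.6% under the former and 47.1% under the latter. For 29 members both D4 libraries were below both D2 libraries (30.3% of all tested genes), and for 2 members both were above (51% of all tested genes). The 2 genes that rose were Psme1 and Psme2. Summed over the 41 genes, the level was 4558 and 4469 CPM in the D2 libraries, and 3869 and 3526 CPM in those of D4. The D4 libraries differed from each other in the same genes: 35 of 40 members were higher in D4 replicate 1 than in D4 replicate 2, by a median of 0.18 on the log2 scale, beside 56.6% of all tested genes and a median of 0.02. Members also leaned to 1 library on other days. Those higher in replicate 1 numbered 30 in D2, 9 in D6 and 26 in D8, beside 48.3%, 52.1% and 50.7% of all tested genes. The members' medians there were 0.03, -0.06 and 0.04. Without D4 replicate 1 the number of members that fell was 30, and without D4 replicate 2 it was 20. Leaving out D2 replicate 1 gave 18, and the 2 rises held with any library left out.

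**Figure D1:**
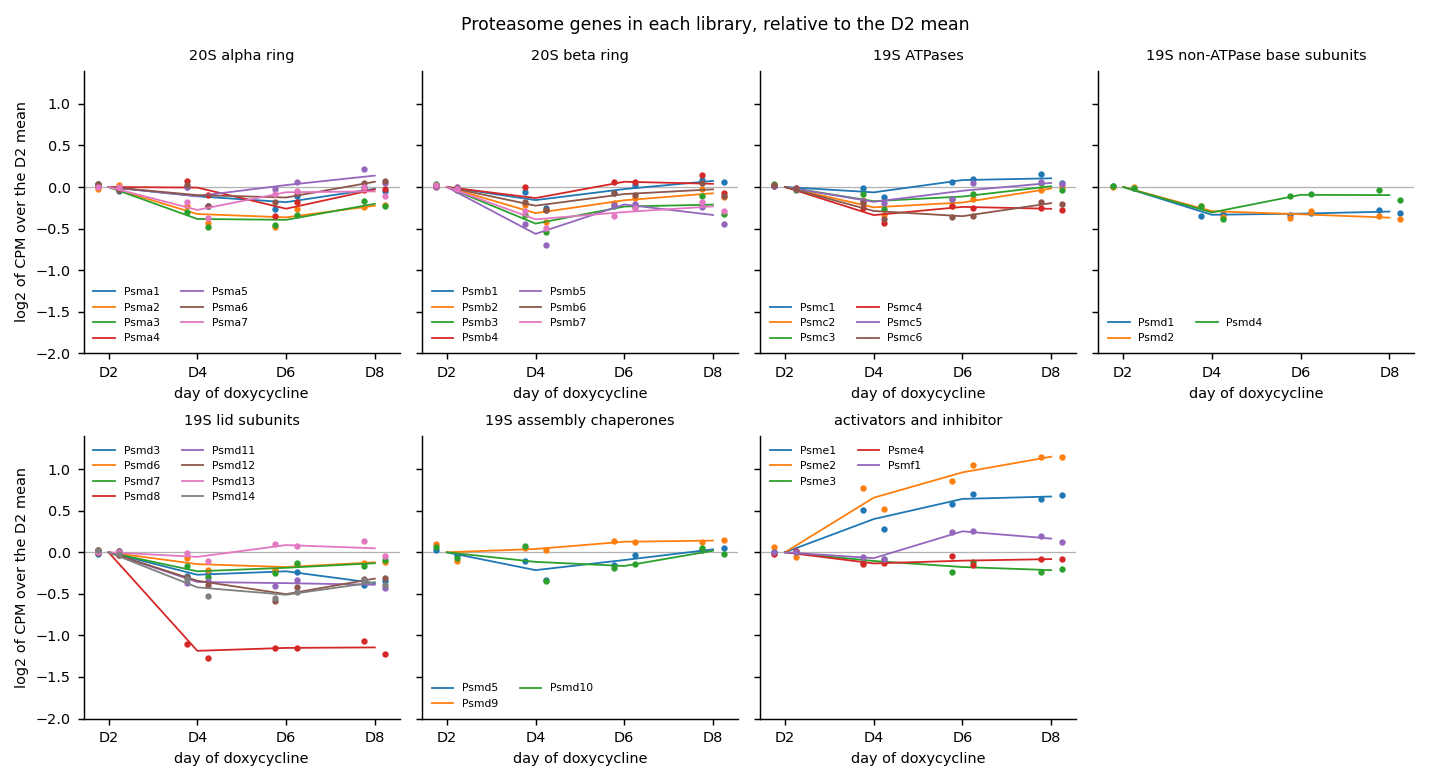
Level of the tested proteasome genes other than Psma8 in each library, as the log2 of CPM over the gene's D2 mean, by day of doxycycline and by role in the complex. Points are libraries (replicate 1 left, replicate 2 right of the day) and lines join the means of the 2 libraries. Psmd8 lies near -1.2 from D4 on, Psme1 and Psme2 rise above 0, and most other genes dip below 0 in D4.

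The later steps moved fewer members. Between D4 and D6, 7 members rose (Psma7, Psmb5, Psmc1, Psmd4, Psme1, Psme2 and Psmf1) and 1 fell (Psma4), while 25.2% of all tested genes rose and 12.6% fell. The members' median of 0.07 equalled that of all tested genes to 2 decimals. This count rests on single libraries. Without D4 replicate 1 it was 14 higher and 0 lower, without D4 replicate 2 it was 1 higher (Psmf1) and 3 lower (Psma4, Psmd12 and Psmd14), and without D6 replicate 2 it was 2 higher (Psmb5 and Psmf1) and 2 lower. Without D6 replicate 1 the fall of Psma4 was lost. Under median-of-ratios scaling 2 members rose and 4 fell, and under quantile normalization 6 rose and 2 fell, while the share of all called genes that were higher went from 66.7% to 46.9% and 47.7%. Both D6 libraries were above both D4 libraries for 17 members (44.4% of all tested genes) and below for 2 (24.6%). Between D6 and D8, 1 member rose (Psma4) and limma called 0 lower, beside 4.72% and 4.39% of all tested genes. At an unadjusted p under 0.05 the counts for this step were 8 higher and 1 lower. The share of all tested genes at that threshold was not computed, so these counts have no scale. The rise of Psma4 was lost when any of D2 replicate 1, D2 replicate 2, D6 replicate 1, D8 replicate 1 or D8 replicate 2 was left out. Without either D4 library 5 members rose in this step (Psma3, Psma4, Psma6, Psmc2 and Psmc6), and without D6 replicate 2 it was 2 (Psma4 and Psmd12). Both D8 libraries were above both D6 libraries for 16 members (28.2% of all tested genes) and below for 4 (27.5%).

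Over the whole span, from D2 to D8, 15 members fell and 4 rose (Psma8, Psme1, Psme2 and Psmf1). Of all tested genes, 23.1% fell and 47.3% rose. Psma8 passed the filter only through D6 and D8, so its rise cannot be separated from that selection. With a filter of 5 CPM it was not tested, and 3 members rose. The members' median was -0.06 and that of all tested genes 0.17, and 37 of 40 members lay below the latter. Under median-of-ratios scaling 27 fell and 2 rose, and under quantile normalization 17 fell and 2 rose, with 67.2% of all called genes higher as reported, 50.9% and 45.1%. The rises of Psma8 and Psmf1 were lost under both, the difference of Psmf1 turning from 0.16 to -0.02 and -0.03, as well as without D2 replicate 1, D2 replicate 2 or D8 replicate 1. Both D8 libraries were below both D2 libraries for 21 members (29.3% of all tested genes) and above them for 10 (56.4%). The mean level was highest in D2 for 25 of the 40 members, in D8 for 12 and in D6 for 3, and it was lowest in D4 for 23. Across the 4 days, 31 of 40 members differed by limma's F test, beside 80.4% of all tested genes.

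**Figure D2:**
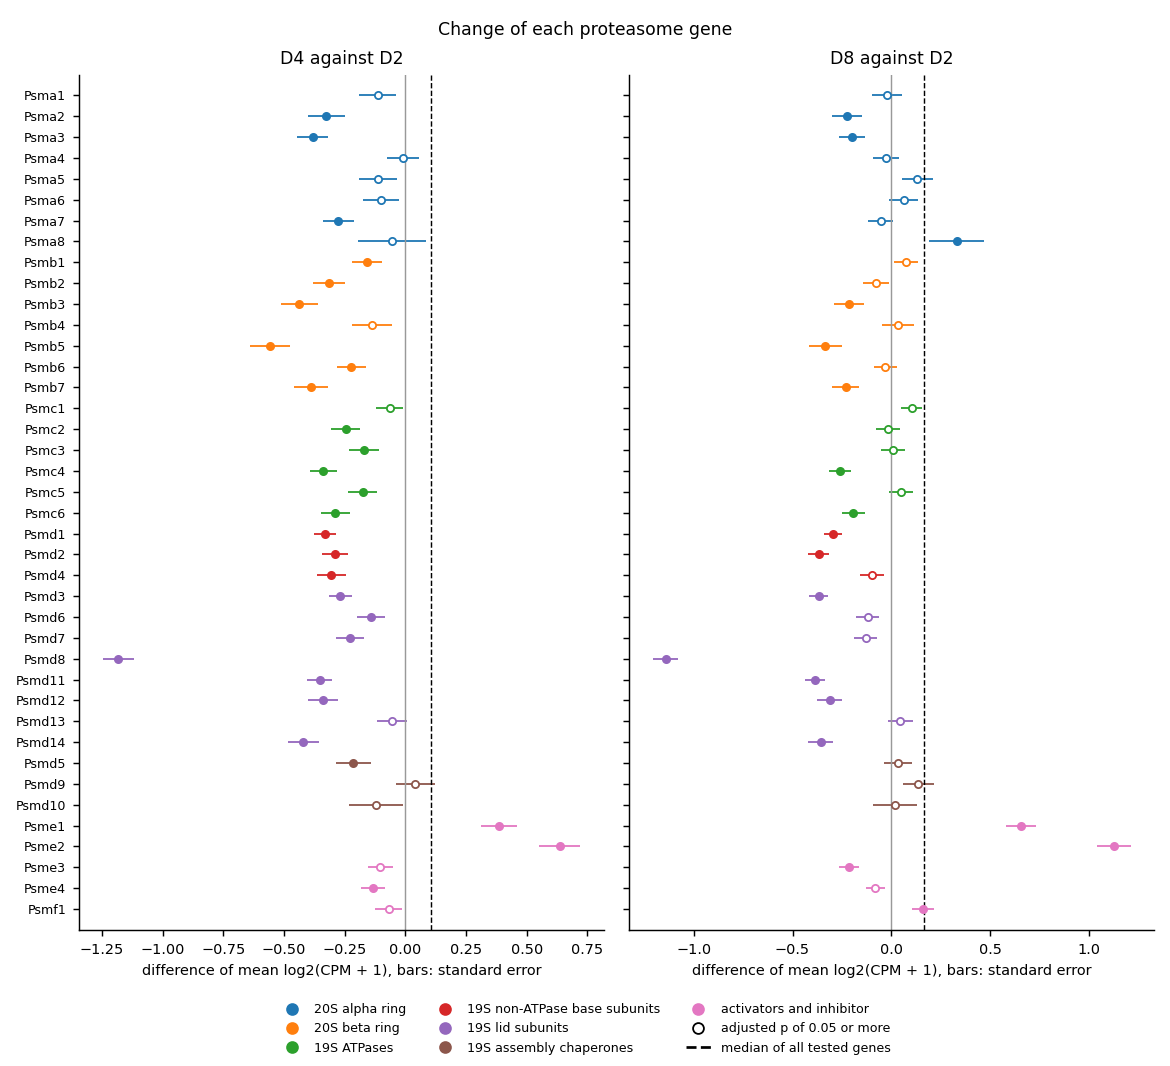
Difference of the day means of log2(CPM + 1) for each of the 40 tested proteasome genes, D4 against D2 (left) and D8 against D2 (right), with bars of 1 standard error. Filled points passed the test, open points did not, colours mark the role, and the dashed line is the median of all tested genes (0.11 and 0.17). In D4 against D2 all but Psme1 and Psme2 lie left of the dashed line.

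The 7 alpha subunits of the ordinary 20S core, which form the outer rings and gate the entry to the barrel, and Psma8 behaved unevenly. Between D2 and D4, 3 of the 8 fell (Psma2, Psma3 and Psma7), with a median of -0.11 over the 8. This is 37.5%, beside 21.7% of all tested genes. Psma3 (chromosome 12, 70974621 to 70996347, plus strand) stood at 105 and 99.8 CPM in D2, 83.4 and 73.5 in D4, 74.7 and 81.0 in D6, and 90.8 and 87.2 in D8. Every later library was thus below both D2 libraries. It fell by 0.38 ± 0.07 (SE) from D2 to D4 (adjusted p = 2.0e-04) and its difference of D8 against D2 was -0.20 ± 0.07 (adjusted p = 0.015), a call lost without D2 replicate 1 or D8 replicate 2. Psma6, the alpha gene that moved least over the 3 steps, stood at 90.4 and 85.5 CPM in D2, 89.4 and 75.0 in D4, 77.7 and 83.5 in D6, and 91.0 and 92.7 in D8. The D2 and D4 libraries overlapped, and no step passed the test. Its difference of D8 against D2, 0.06 ± 0.07, turned to -0.13 under median-of-ratios scaling and to -0.02 under quantile normalization.

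Psma4 was the member that fell between D4 and D6 and rose between D6 and D8. It stood at 106 and 103 CPM in D2, 110 and 97.9 in D4, 81.9 and 92.4 in D6, and 102 and 103 in D8. The 2 D6 libraries were the lowest of the 8. The fall was -0.25 ± 0.07 (adjusted p = 0.0097), lost without D4 replicate 1 or D6 replicate 1, and the rise was 0.23 ± 0.07 (adjusted p = 0.047). Exons of Psma4 overlap those of AY074887 on the other strand over 114 bases, and whether the counting used strand is not given in the sources used here. Psma8 was listed at 0.794 and 0.996 CPM in D2, 0.949 and 0.702 in D4, 1.18 and 1.44 in D6, and 1.60 and 1.18 in D8. Both late days lay above D2, with a difference of D8 against D2 of 0.33 ± 0.14 (adjusted p = 0.047) on the log2(CPM + 1) scale, which understates the change of a gene at this level. Under quantile normalization that difference was -0.03. Psma8 passed the filter only through D6 and D8, the days in which it was higher, and without a filter the call was lost.

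The beta subunits line the chamber, and Psmb5, Psmb6 and Psmb7 carry the chymotrypsin-like, caspase-like and trypsin-like sites. Of the 7 tested, 6 fell between D2 and D4 (85.7%, beside 21.7% of all tested genes), with a median of -0.31. The other, Psmb4, was not called. Psmb5 (ENSMUSG00000022193, chromosome 14, 54614119 to 54618022, minus strand) stood at 55.3 and 55.0 CPM in D2, 40.6 and 34.0 in D4, 47.7 and 47.7 in D6, and 46.8 and 40.6 in D8. All 6 later libraries lay below both D2 libraries. It fell by 0.56 ± 0.08 from D2 to D4 (adjusted p = 6.4e-05), rose by 0.35 ± 0.08 from D4 to D6 (adjusted p = 0.0052), and was lower in D8 than in D2 by a difference of -0.33 ± 0.08 (adjusted p = 0.0028). The rise from D4 to D6 had an adjusted p of 0.056 without D4 replicate 2. Its exons overlap those of the microRNA gene Mir686 on the same strand over 109 bases.

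The other 2 catalytic genes moved less than Psmb5. Psmb6 fell by 0.22 ± 0.06 between D2 and D4 (adjusted p = 0.0054, lost without D2 replicate 1), from 91.6 and 88.2 to 79.4 and 74.5 CPM, and stood at 92.9 and 83.5 CPM in D8, where the libraries overlapped those of D2. Psmb7 fell by 0.39 ± 0.07 (adjusted p = 3.2e-04), from 87.2 and 83.8 to 69.9 and 60.7 CPM, and its difference of D8 against D2 was -0.23 ± 0.07 (adjusted p = 0.0096, lost without D2 replicate 1 or D8 replicate 2). Psmb3, a structural subunit, also fell, by 0.44 ± 0.08 (adjusted p = 2.6e-04). Psmb4 stood at 108 and 107 CPM in D2, 108 and 88.3 in D4, 112 and 112 in D6, and 118 and 102 in D8, so the spread in D4 and D8 exceeded the differences between days. Over D2 to D8, 3 of the 7 beta genes fell (Psmb3, Psmb5 and Psmb7), or 42.9%, beside 23.1% of all tested genes. Without a filter the calls of Psmb3 and Psmb7 were lost. That of Psmb3 was also lost without an intensity trend, and without D2 replicate 1, D2 replicate 2 or D8 replicate 2.

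The 6 ATPases of the 19S base, Psmc1 to Psmc6, form the ring that unfolds substrates and threads them into the core. Of these, 5 fell between D2 and D4 (83.3%, beside 21.7% of all tested genes), with a median of -0.21. Over D2 to D8, 2 fell (Psmc4 and Psmc6), or 33.3%, beside 23.1% of all tested genes. Psmc6 stood at 124 and 121 CPM in D2, 107 and 93.7 in D4, 95.7 and 96.3 in D6, and 108 and 106 in D8. All later libraries were below D2. The fall to D4 was -0.29 ± 0.06 (adjusted p = 8.8e-04) and the difference of D8 against D2 was -0.19 ± 0.06 (adjusted p = 0.011), the latter lost without D2 replicate 1. Psmc1, the exception, stood at 147 and 145 CPM in D2, 145 and 134 in D4, 153 and 157 in D6, and 163 and 151 in D8. D2 and D4 overlapped by a narrow margin, and the rise from D4 to D6, 0.15 ± 0.05, had an adjusted p of 0.048 and was lost under both scalings and without D2 replicate 1, D2 replicate 2, D4 replicate 2, D6 replicate 1 or D6 replicate 2. Its difference of D8 against D2 was 0.10 ± 0.05 (adjusted p = 0.11) and turned to -0.09 under median-of-ratios scaling.

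The 3 non-ATPase subunits of the base all fell between D2 and D4, beside 21.7% of all tested genes. Psmd1 and Psmd2 are the large scaffold subunits, and Psmd2 and Psmd4 bind ubiquitin-like domains or ubiquitin chains. Psmd2 stood at 276 and 275 CPM in D2, 236 and 215 in D4, 213 and 226 in D6, and 216 and 211 in D8. It fell by 0.29 ± 0.05 to D4 (adjusted p = 3.5e-04), and its difference of D8 against D2 was -0.37 ± 0.05 (adjusted p = 3.5e-05). Psmd1 fell by 0.33 ± 0.04 (adjusted p = 2.4e-05), from 201 and 199 to 157 and 160 CPM, and stayed at 161 to 165 CPM in D8. Psmd4, the ubiquitin receptor, stood at 122 and 120 CPM in D2, 103 and 92.2 in D4, 113 and 114 in D6, and 117 and 108 in D8. It fell by 0.31 ± 0.06 and then rose by 0.21 ± 0.06 between D4 and D6 (adjusted p = 6.1e-04 and 0.014), the rise being lost without D4 replicate 2, D6 replicate 1 or D6 replicate 2 and under median-of-ratios scaling. Psmd1 and Psmd2 were thus about as low in D8 as in D4, while the D8 libraries of Psmd4 lay above those of D4.

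The lid held the member with the largest change of the complex, Psmd8. Of the 8 lid subunits, 7 fell between D2 and D4 (87.5%, beside 21.7% of all tested genes). Their median of -0.30 was near those of the beta ring (-0.31) and the non-ATPase base subunits (-0.31). Over D2 to D8, 5 fell (62.5%, beside 23.1% of all tested genes). Psmd8 (ENSMUSG00000030591, chromosome 7, 29174188 to 29180701, minus strand), a structural lid subunit, stood at 463 and 446 CPM in D2, 212 and 188 in D4, 205 and 205 in D6, and 217 and 194 in D8. All 6 later libraries were below both D2 libraries by more than the spread of any day. It fell by 1.18 ± 0.06 from D2 to D4 (adjusted p = 4.2e-09), to 0.44 of the D2 mean, and the difference of D8 against D2 was -1.14 ± 0.06 (adjusted p = 3.2e-09). With any library left out, the difference of D4 against D2 lay between -1.27 and -1.10. Neither later step passed the test, with 0.04 for D6 against D4 and 0.00 for D8 against D6. Among all tested genes the change of D4 against D2 lay at percentile 2.31.

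Psmd14, the deubiquitinase that cuts ubiquitin chains from substrates, fell by 0.42 ± 0.06 between D2 and D4 (adjusted p = 7.4e-05). It stood at 109 and 105 CPM in D2, 85.3 and 74.4 in D4, 73.3 and 76.8 in D6, and 85.0 and 81.7 in D8, so that no later library reached D2. Psmd11 and Psmd12, structural lid subunits, fell by 0.35 ± 0.05 and 0.34 ± 0.06 in that step, and their differences of D8 against D2 were -0.39 ± 0.05 and -0.31 ± 0.06. Psmd6 moved little. It stood at 90.1 and 87.1 CPM in D2, 84.4 and 76.2 in D4, 76.3 and 80.4 in D6, and 81.1 and 81.8 in D8. Its fall to D4 (-0.14 ± 0.06) was near the threshold at adjusted p = 0.048 and was kept with D4 replicate 1 left out but with no other library left out, and its difference of D8 against D2 (-0.12 ± 0.06) did not pass (adjusted p = 0.083). Psmd13 was the lid gene that did not pass in D4 against D2, at -0.05 ± 0.06 (adjusted p = 0.47).

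**Figure D3:**
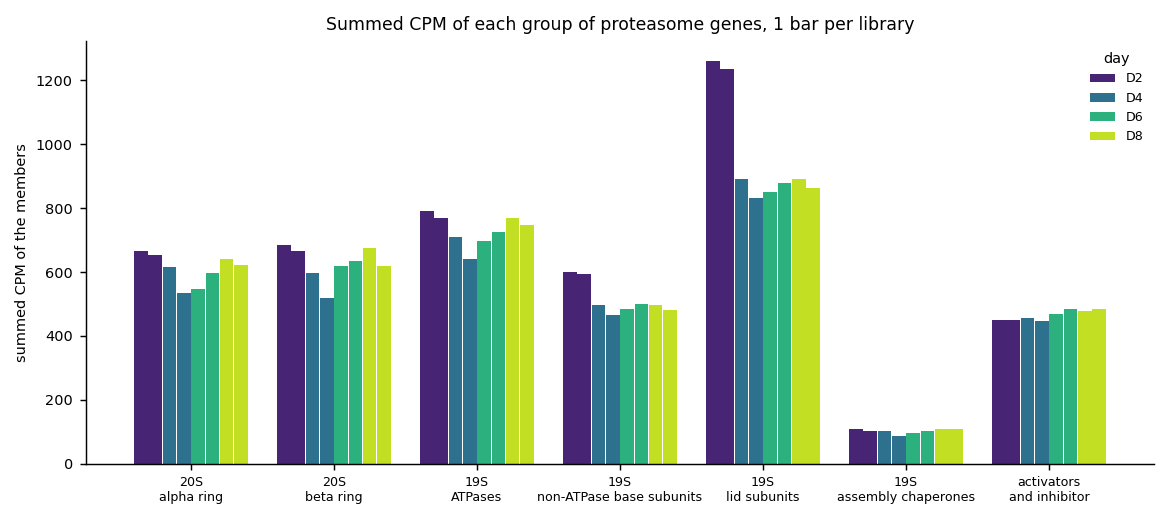
Summed CPM of the proteasome genes of each role, with 1 bar per library (replicate 1 left of replicate 2) and colours for the day. The lid sums to 1261 and 1236 CPM in D2 and to at most 891 CPM in any later library, while the activators and the inhibitor lie between 446 and 485 CPM in all 8 libraries.

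The sums by role show how much of the drop Psmd8 carries. The lid genes summed to 1249 ± 17.6 CPM (SD, n = 2) in D2 and 860 ± 42.0 in D4, and without Psmd8 to 794 ± 5.57 and 660 ± 25.2. All 41 genes summed to 4513 ± 63.0, 3697 ± 243, 3844 ± 114 and 3990 ± 97.4 CPM in D2, D4, D6 and D8. Without Psmd8 the sums were 4058 ± 51.0, 3497 ± 226, 3639 ± 114 and 3784 ± 81.0 CPM. The ratio of D8 to D2 was 0.88 with Psmd8 and 0.93 without it. The 20S core summed to 1335 ± 22.3 CPM in D2, 1135 ± 114 in D4 and 1277 ± 52.1 in D8, and the 19S particle without its assembly chaperones to 2624 ± 36.8, 2017 ± 111 and 2123 ± 48.8. The D8 sum of the core was 0.96 of that in D2, and that of the 19S particle, which includes Psmd8, 0.81. By part of the 19S particle this ratio was 0.97 for the ATPases and 0.82 for the non-ATPase base subunits. For the lid it was 0.70 with Psmd8 and 0.84 without it.

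Levels can be compared between genes only per length, so CPM were divided by the kilobases of annotated exon of each gene (GENCODE M21, all exons joined). In D2 Psmd8 had the highest level of all 41 genes, 149 CPM per kb, and in D4 it ranked 4 with 65.4. The other 7 lid genes ran from 18.7 (Psmd11) to 71.4 CPM per kb (Psmd7) in D2. The ratio of the highest to the lowest lid gene was therefore 7.97 in D2 and 4.49 in D4, 4.64 in D6 and 4.72 in D8. Among the 7 ordinary alpha subunits (without Psma8), which the ring holds in equal copies, the levels per kb ran from 26.3 (Psma3) to 71.3 (Psma6) in D2, a ratio of 2.71, and the ratio was 3.31 in D4. In the beta ring without Psmb11 it was 3.26 in D2, from Psmb7 at 25.0 to Psmb2 at 81.6, and 3.44 in D4. Among the ATPases it was 2.69 in D2, from Psmc2 at 28.1 to Psmc1 at 75.6, and 3.05 in D4. These ratios depend on how long the annotation makes each gene, which is the same for every day.

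The 19S assembly chaperones Psmd5, Psmd9 and Psmd10 hold the base together as it forms and are not part of the finished complex. Of the 3, Psmd5 fell between D2 and D4 (33.3%, beside 21.7% of all tested genes). It stood at 68.9 and 65.7 CPM in D2, 62.5 and 53.5 in D4, 60.5 and 65.7 in D6, and 68.4 and 69.6 in D8. The fall was -0.22 ± 0.07 (adjusted p = 0.018), it was lost without D2 replicate 1 or D4 replicate 2, and the D8 libraries overlapped those of D2. Psmd9 stood at 20.1 and 17.5 CPM in D2, 19.5 and 19.2 in D4, 20.6 and 20.5 in D6, and 20.6 and 20.9 in D8. Its differences were 0.04 ± 0.08 and 0.14 ± 0.08 for D4 and D8 against D2 and did not pass, and both were negative under median-of-ratios scaling and quantile normalization. Its exons overlap those of Gm26745 on the other strand over 1849 bases. In all, 9 members share exon bases with a gene on the other strand, among them Psmb7 (with Nek6, 405 bases), Psmd1 (with Htr2b, 252), Psmd13 (with Sirt3, 342) and Psme1 (with Emc9, 14), and reads from such partners cannot be told apart if strand was not used. Psmd10 stood between 14.5 and 19.4 CPM and passed in no step.

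The activators went different ways. Psme1 and Psme2 encode the alpha and beta subunits of PA28, an interferon-inducible cap linked to the production of antigenic peptides, and both rose. Psme2 (ENSMUSG00000079197, chromosome 14, 55587441 to 55591113, minus strand) stood at 32.5 and 30.0 CPM in D2, 53.6 and 44.9 in D4, 56.7 and 64.9 in D6, and 69.3 and 69.4 in D8. No library of a later day overlapped an earlier day. It rose by 0.64 ± 0.08 from D2 to D4 (adjusted p = 2.3e-05), by 0.30 ± 0.08 from D4 to D6 (adjusted p = 0.013), and by 1.13 ± 0.08 from D2 to D8 (adjusted p = 5.9e-08), a ratio of 2.22. Psme1 (ENSMUSG00000022216, chromosome 14, 55578123 to 55581529, plus strand) stood at 36.5 and 36.7 CPM in D2, 52.2 and 44.3 in D4, 54.5 and 59.7 in D6, and 57.3 and 59.2 in D8. It rose by 0.39 ± 0.08 to D4 and by 0.66 ± 0.08 to D8 (adjusted p = 5.7e-04 and 3.7e-06). The rises of both genes against D2 held under median-of-ratios scaling and quantile normalization, and those from D4 to D6 were lost under the former and without D4 replicate 2 or D6 replicate 2. Psme2b, a near copy of Psme2 that the name rule does not take, stood at 5.18 and 5.74 CPM in D2 and 12.0 and 10.8 CPM in D8, and reads that match both copies could be assigned to either. The values of Psme2 held parts of reads in 7 libraries.

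Psme3 and Psme4 did not follow them. Psme3, which encodes the nuclear PA28gamma, stood at 176 and 177 CPM in D2, 162 and 167 in D4, 149 and 163 in D6, and 150 and 154 in D8. It passed in no step but was lower in D8 than in D2, by a difference of -0.21 ± 0.05 (adjusted p = 0.0022). Psme4, which encodes PA200, stood at 162 and 166 CPM in D2, 148 and 150 in D4, 159 and 147 in D6, and 155 and 155 in D8. It fell by 0.13 ± 0.05 from D2 to D4 (adjusted p = 0.032), a call that was lost under quantile normalization and without any of the D2 and D4 libraries. Psmf1, which encodes the proteasome inhibitor PI31, stood at 42.0 and 41.9 CPM in D2, 40.4 and 39.6 in D4, 49.8 and 50.2 in D6, and 48.2 and 45.8 in D8. It rose by 0.32 ± 0.06 from D4 to D6 (adjusted p = 7.7e-04), and this call held under both scalings and with any library left out.

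**Figure D4:**
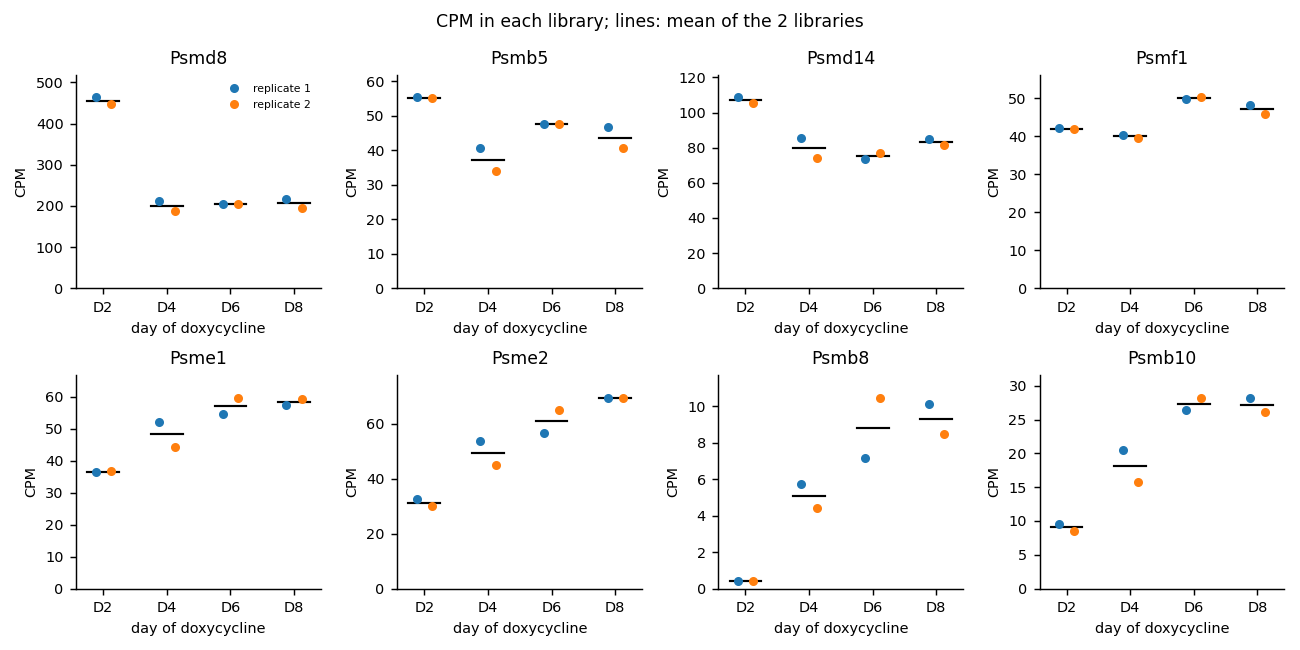
CPM of 6 proteasome genes and of the immunoproteasome genes Psmb8 and Psmb10 in each library, with a line at the mean of each day's 2 libraries. Psmd8, Psmb5 and Psmd14 are highest in D2, Psmf1 is highest in D6, and Psme1, Psme2, Psmb8 and Psmb10 lie higher in every later library than in D2.

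The immunoproteasome subunits Psmb8, Psmb9 and Psmb10 replace Psmb5, Psmb6 and Psmb7 in cells exposed to interferon. All 3 rose between D2 and D4 and over D2 to D8, when 40.9% and 47.3% of all tested genes rose. Psmb8 stood at 0.422 and 0.398 CPM in D2, 5.77 and 4.41 in D4, 7.18 and 10.5 in D6, and 10.1 and 8.50 in D8. It rose by 2.10 between D2 and D4 and by 2.87 between D2 and D8 on the log2(CPM + 1) scale (adjusted p = 1.3e-07 and 3.2e-09), while the ratios of the mean CPM were 12.4 and 22.7. Psmb9 stood at 0.298 and 0.697 CPM in D2 and 7.06 and 6.87 CPM in D8, a rise of 2.42 (adjusted p = 8.1e-09) and a ratio of 14.0. For both genes the log2(CPM + 1) scale understates the change, and their exons overlap those of Gm20496 (Psmb8) and Tap1 (Psmb9) on the other strand. Both were below 1 CPM in D2, so they passed the filter only through later days, and their rises cannot be separated from that selection. Psmb10 stood at 9.62 and 8.57 CPM in D2, 20.5 and 15.7 in D4, 26.4 and 28.1 in D6, and 28.2 and 26.2 in D8, a rise of 1.48 over the span (adjusted p = 5.0e-08). Even in D8 the means of these genes, 9.32, 6.96 and 27.2 CPM, were below those of Psmb5, Psmb6 and Psmb7, though levels of different genes are not compared here per length. The 6 macrophage markers summed to 64.0 and 90.2 CPM in the D2 libraries and to 64.5 and 71.2 CPM in those of D8. All 6 passed the filter, and none was below 3 reads in all libraries. Singly they went different ways. From D2 to D8, 1 rose and 1 fell, with differences from -0.39 to 0.53, and between D2 and D4, 1 fell and 0 rose. The part of cell makeup in the rises of Psmb8, Psmb9 and Psmb10 was not tested.

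Other genes of the pathway came from lists drawn up by function. Of 7 proteasome subunits and cofactors outside the name rule, 3 fell and 1 rose between D2 and D4, when 21.7% of all tested genes fell and 40.9% rose. The ubiquitin receptor gene Adrm1 fell by 0.20 (adjusted p = 0.0071), from a mean of 78.3 to 68.0 CPM. Sem1, the smallest lid subunit, was at 45.1 and 41.8 CPM and did not pass (-0.11, adjusted p = 0.15). The deubiquitinase gene Usp14 fell by 0.34 and Txnl1, a thioredoxin-like protein bound to the 19S particle, by 0.22 (adjusted p = 4.8e-05 and 0.0023). Ecpas, a proteasome adaptor and scaffold, rose by 0.21 (adjusted p = 0.0021), and by 0.66 over D2 to D8. The Ecpas rise to D4 was lost under median-of-ratios scaling.

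Of the 5 chaperones that assemble the 20S core, 2 rose and 1 fell between D2 and D4, shares of 40% and 20% that lie near those of all tested genes (40.9% and 21.7%). Psmg2 and Psmg4 rose by 0.48 and 0.55 (adjusted p = 3.6e-04 and 4.2e-04), to means of 21.0 and 8.56 CPM from 14.8 and 5.52 CPM. Both stayed higher in D8, by 0.62 and 0.89. Pomp, the maturation factor that is degraded as the core closes, fell by 0.27 (adjusted p = 0.010), and its difference of D8 against D2 was -0.05 (adjusted p = 0.57).

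Of 9 regulators of proteasome genes, 5 fell and 3 rose between D2 and D4, and 5 fell and 2 rose over D2 to D8. Of all tested genes, 21.7% fell and 40.9% rose between D2 and D4, and 23.1% fell and 47.3% rose over D2 to D8. Nfe2l1 stood at 360 and 382 CPM in D2, 312 and 326 in D4, 275 and 279 in D6, and 272 and 288 in D8. It fell by 0.22 from D2 to D4 and by 0.20 from D4 to D6 (adjusted p = 0.0023 and 0.0069), and by 0.41 over the span (adjusted p = 9.0e-06). Its fall to D4 was lost under quantile normalization, where the difference was -0.05. The related factor gene Nfe2l2 fell by 0.24 and then rose by 0.18 (adjusted p = 0.0014 and 0.017). Ngly1 and Ddi2, which encode the deglycosylase and the protease that process the Nfe2l1 protein, rose by 0.49 and 0.35 from D2 to D4 (adjusted p = 1.0e-04 and 9.5e-05). Zfand5 and Zfand2a, stress-induced proteasome-binding zinc finger proteins, fell by 0.62 and 0.57 (adjusted p = 2.5e-07 and 1.4e-05).

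Ubiquitin and its E1 enzymes act upstream of the proteasome. The E1 enzyme gene Uba6 fell by 1.13 between D2 and D4 (adjusted p = 1.0e-09), from a mean of 106 to 47.8 CPM, and Uba1, the main E1, fell by 0.22 (adjusted p = 0.0010). The ubiquitin gene Ubb rose by 0.29 between D4 and D6 (adjusted p = 9.8e-04). Of 9 genes for shuttle factors and the p97 segregase, which bring substrates to the proteasome, 4 fell between D2 and D4 (44.4%, beside 21.7% of all tested genes). Rad23b fell by 0.52, Ubqln1 by 0.41, Nploc4 by 0.32 and Vcp by 0.22 (adjusted p = 4.0e-07, 8.2e-06, 1.1e-04 and 8.1e-04). The falls of Uba1 and Vcp were lost under quantile normalization.

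Other large complexes give the proteasome counts a scale. Of 10 genes of the COP9 signalosome, which resembles the 19S lid, 2 fell and 2 rose between D2 and D4 (20% each, beside 21.7% and 40.9% of all tested genes), with a median of 0.03. Of 8 genes of the chaperonin TRiC, 8 fell in that step, with a median of -0.32, and 5 fell over D2 to D8, while under quantile normalization the counts were 5 and 2. Of 17 genes of the vacuolar ATPase, which acidifies lysosomes, 15 fell and 1 rose in that step, with a median of -0.44, and 10 fell and 1 rose over D2 to D8. Over D2 to D8, 23.1% of all tested genes fell and 47.3% rose. A fall between D2 and D4 was thus also counted in these 2 complexes, and no test compared them with the proteasome.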

How the data were processed

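Bulk RNA-seq of 4F2A MEFs was analysed for 8 libraries, 2 each of D2, D4, D6 and D8. The deposited table holds CPM per gene: every column sums to 1000000, although the authors named the table for TPM. The submitters' processing notes name Trimmomatic 0.39, featureCounts and mm10. No statement of the aligner, the annotation release or the strand setting was found; these remain not given in the sources used here. From the step size of the values, each library held 19409936 to 20161021 counted reads. Values corresponding to whole reads made up 52.8% to 54.3% of those above 0 (tolerance 0.02 hundredths of a read), and the rest held parts of reads, as when a read is split between genes. Of the tested members, 12 held whole reads in all libraries. Symbols, coordinates and exon lengths came from GENCODE M21, and 79 of 32108 identifiers had no symbol.

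The test was run on genes that reached 1 CPM or more in 2 or more libraries. The fit used limma 3.58.1 (R 4.3.3; lmFit and eBayes with an intensity trend) on log2(CPM + 1), with a separate mean for each day and thus 4 residual degrees of freedom. Tests were two-sided, with Benjamini-Hochberg adjustment over 15358 genes, and the script was tested on simulated data. Errors are SD over 2 libraries for levels and limma's SE for differences. Sums, levels per kb and promoter motifs were computed in Python 3.11.15 without a test. The alternatives were another pseudocount (0.1), no filter, a filter of 5 CPM, median-of-ratios scaling, quantile normalization, only the 2 days' libraries, no intensity trend, a replicate block, and each library left out. The labels do not say whether same-numbered libraries belong together, and the main fit did not pair them. Values are given in full for the genes of each role with the largest and smallest mean absolute change over the 3 steps and those moving against most of their role, and for some others described by function. From the other lists, up to 4 called genes with the largest change were taken, and Nfe2l1, Psmb8, Psmb9, Psmb10, Adrm1 and Sem1 always. The members and lists were chosen with earlier results of these data known. Of the list genes, Shfm1 (the older name of Sem1) and Paaf1 matched no row. Some genes of the other lists are not reported here.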

Additional observations from a re-analysis of the deposited data

How the results depend on the processing

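A tally took the members with the largest and smallest change of each role and those moving against most of it, in D4 and D8 against D2. It also took the members called in the later steps, and no other gene described singly. Of its comparisons with an alternative, 540 kept direction and side of the threshold, 81 lost the call, 15 gained one and 18 changed sign. For counts and medians 174 stayed within the limits set (a count within 1.5 times) and 33 moved. For D6 against D4 the members called higher numbered 1 without a filter, 2 under median-of-ratios scaling and 2 without an intensity trend, and those called lower 0 without a filter, 4 under median-of-ratios scaling and 2 under quantile normalization. For D8 against D6 the members called higher numbered 0 with a pseudocount of 0.1, without a filter, with only the 2 days' libraries and without an intensity trend. For D8 against D2 those called higher numbered 2 under median-of-ratios scaling and 2 under quantile normalization, those called lower 27 under median-of-ratios scaling, and the median was -0.25 and -0.13 under these. Without a filter 20 members differed between any days. With 1 library left out in turn, the ranges were 2 to 2 higher and 18 to 30 lower for D4 against D2, 1 to 14 and 0 to 3 for D6 against D4, 0 to 5 and 0 to 0 for D8 against D6, 2 to 5 and 11 to 17 for D8 against D2, and 23 to 36 for any difference. The day that lost a library then had 1, assumed to vary like the others.

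Among differences that had passed the test, the 2 scalings changed the sign for Psma8 (under quantile normalization) and for Psmf1, in D8 against D2, where Psmf1 was -0.0249 under median-of-ratios scaling and -0.0258 under quantile normalization. For D4 against D2, Psmd9 was -0.0615 under median-of-ratios scaling and -0.16 under quantile normalization. With 1 library left out, Psma6 ranged from -0.23 to 0.0245, Psma8 from -0.15 to 0.0425, Psmb4 from -0.28 to 0.0021 and Psmd9 from -0.0557 to 0.14. For D8 against D2, median-of-ratios scaling gave -0.13 for Psma6, -0.15 for Psmb4, -0.0858 for Psmc1, -0.15 for Psmd5 and -0.0434 for Psmd9. Quantile normalization gave -0.0224 for Psma6, -0.0308 for Psma8, -0.0152 for Psmb4, -0.0749 for Psmd5 and -0.14 for Psmd9. With 1 library left out, Psmb4 ranged from -0.0715 to 0.14. The cause of these changes was not tested.

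The correlations of the replicate differences between pairs of days ran from -0.10 (D4 and D6) to 0.21 (D4 and D8). They cannot show whether same-numbered libraries belong together. With a replicate block the members called higher and lower numbered 2 and 26 for D4 against D2, 10 and 1 for D6 against D4, 1 and 0 for D8 against D6, and 3 and 15 for D8 against D2, and 31 differed between any days.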
